A study of Mus musculus with 4 samples.

Results

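The 10 genes *Twist1*, *Twist2*, *Prrx1*, *Prrx2*, *Meox1*, *Meox2*, *Tbx15*, *Tbx18*, *Foxc1*, and *Ets1* encode transcription factors known from embryonic mesenchyme. They were taken as a named set, drawn up with earlier results of these data known, and were followed through 4 neural stem cell (NSC) lines of the mouse, among 27612 genes that appear in any of the tables. The lines were grown from epiblast stem cells (EpiSCs) of the 129/Sv strain. All were kept in EGF (10 ng/ml) with FGF2 (10 ng/ml). XN4 and XN1 also received 10 µM XAV939 (XAV), a tankyrase inhibitor that dampens Wnt signaling, from different suppliers. The paper reports crystals in the XAV used for XN1 and holds that they lowered its effective concentration. KN1 received neither Wnt drug, and CN4 received 2 µM CHIR99021 (CHIR), a GSK3 inhibitor that activates Wnt signaling. XN4 and CN4 came from the same derivation series, and XN1 and KN1 from another. Each line was 1 culture-derived line measured as 1 single-cell library. A line, its medium, its derivation series, and its library therefore cannot be told apart, and no test between lines was possible. Tables of all reads existed for XN4 (8741 cells, median 12615 reads), XN1 (14452 cells, median 5981.5), and CN4 (18157 cells, median 9173), and a second, normalized table for each of the 4 lines held 3448 to 3975 cells.

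Mesenchyme is the loose, migratory embryonic tissue that gives rise to connective tissue, bone, cartilage, and vessel walls. It arises from mesoderm and, in the head, from neural crest. The factors named here work in families. TWIST1 and TWIST2 are basic helix-loop-helix proteins that pair with E proteins on E-box sequences and are known for driving cells out of epithelia. PRRX1 and PRRX2 are paired-related homeodomain proteins of limb and face mesenchyme. MEOX1 and MEOX2 are homeodomain proteins of the somites. TBX15 and TBX18 are T-box repressors of skeletal and of pericyte and epicardial progenitors, FOXC1 is a forkhead factor of head and vascular mesenchyme, and ETS1 is the founding ETS-domain factor, used by endothelium, neural crest, and blood as well. Neural progenitors are not defined by any of them.

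The label of the lines was first checked against neural progenitor markers. From microarrays of whole cultures, the paper reports *Sox2* in all its NSC lines, *Sox3* and *Pax6* low in XN4, and *Sox1* low in XN1. It also reports that XN4 formed neurons, oligodendrocytes, and astrocytes. In XN4, 8 of the 10 neural progenitor genes were at least 2-fold below every other line, where 8.67% of the 12738 genes compared were. *Sox2*, which maintains neural progenitors, was captured in 0.561% of XN4 cells, 63.5% of XN1 cells, and 85.9% of CN4 cells. *Nes*, an intermediate filament of these cells, was captured in 8.56% of XN4 cells, 65.7% of XN1 cells, and 81.9% of CN4 cells. *Fabp7*, a lipid carrier of radial glia, had 0 reads in XN4, where 0 of 8741 cells allow a share of up to 0.0343% (3 counts of the total, the limit used here for a count of 0), whereas it was captured in 98.5% of CN4 cells. *Sox3*, *Hes5*, and *Olig2* also had 0 reads in the normalized XN4 table, while the glutamate transporter gene *Slc1a3* was at 63.9 RPM (reads per 1000000 reads) there against at least 922 elsewhere. *Sox1* was high in CN4 alone, at 68.2 RPM against at most 2.50. The XN4 values of *Sox2* and *Sox1* here thus differ from the microarrays of the paper, and the reason was not tested. The label thus lacked several of its defining markers in XN4, although *Nes* and *Slc1a3* were still read. *Msi1* and *Sox1*, the rest of the list, were not among the 8 lower genes. In the normalized XN4 table, 3 of the 10 genes had reads in at least 1% of cells. *Col3a1*, a fibrillar collagen of connective tissue, was captured in 97.7% of XN4 cells, 0.228% of XN1 cells, and 1.04% of CN4 cells.

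The positions below are on GRCm38, the build of the files. The RefSeq promoter windows of 300 bases (GRCm38.p6) were matched by symbol for 7 of the 10 genes. They are shown for the 3 genes with a match to the E-box CANNTG, the kind of site TWIST proteins bind, or to the homeodomain core TAATTA, searched on both strands. E-boxes were found in 2 of the 7 windows, those of *Meox2* and *Tbx18*, whereas 72.3% of 32544 windows in the whole table hold one. The core TAATTA was found in the *Prrx1* window and in 5.29% of all windows. The forkhead motif TGTTTAC, the T-box motif AGGTGTGA, and the ETS motif CCGGAAGT were found in none of the 7 windows and in 3.66%, 1.28%, and 3.92% of all windows. The GC content of the 7 windows ran from 47.7% to 70.3% around a median of 53% over all windows. Only bases before the annotated starts are printed, 5′ to 3′ on the strand of the gene, with the match in capitals.
Meox2 (chr12:37108290-37108539, plus strand): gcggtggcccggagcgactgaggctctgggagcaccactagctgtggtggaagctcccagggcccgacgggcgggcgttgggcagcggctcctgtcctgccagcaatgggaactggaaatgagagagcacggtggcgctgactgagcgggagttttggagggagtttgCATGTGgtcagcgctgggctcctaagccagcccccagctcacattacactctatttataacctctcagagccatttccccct
Tbx18 (chr9:87731261-87731510, minus strand): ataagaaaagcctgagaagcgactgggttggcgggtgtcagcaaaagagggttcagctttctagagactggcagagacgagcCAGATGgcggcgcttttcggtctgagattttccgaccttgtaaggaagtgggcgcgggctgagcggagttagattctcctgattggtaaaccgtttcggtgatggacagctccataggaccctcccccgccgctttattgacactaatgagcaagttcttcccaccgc
Prrx1 (chr1:163313711-163313900, minus strand): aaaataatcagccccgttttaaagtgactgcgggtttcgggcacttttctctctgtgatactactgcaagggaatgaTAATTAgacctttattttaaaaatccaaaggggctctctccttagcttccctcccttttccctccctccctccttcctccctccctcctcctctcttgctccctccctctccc
A match is a description of the letters and not of a bound site.

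Levels were compared across the 4 lines as pooled reads per 1000000 reads (RPM), the reads of a gene over all reads of the cells of the normalized table. Each value has an exact 95% Poisson interval that covers counting error of reads only. Reads were not collapsed to molecules, so the intervals are too narrow as measures of molecules. In XN4, 8 of the 10 genes were at least 2-fold above every other line, where the same rule was met by 9.69% of the 13791 genes with reads in at least 1% of cells of some line. The exceptions were *Ets1*, at 1.81-fold, and *Prrx2*, which was highest in CN4. The median log2 ratio of the 10 genes in XN4 to the highest other line was 3.23, against −0.49 over all genes compared. Because the set was drawn up with earlier results of these data known, these contrasts describe it and do not test it. *Twist2* and *Tbx15* reached 1% of cells in XN4 alone. No gene of the 10 was at least 2-fold above every other line in XN1 (background 3.0%), in CN4 (background 2.07%), or, among the 7 it lists, in KN1 (background 12.5%). The other lines did not follow a single order, as the families show.

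**Figure D1:**
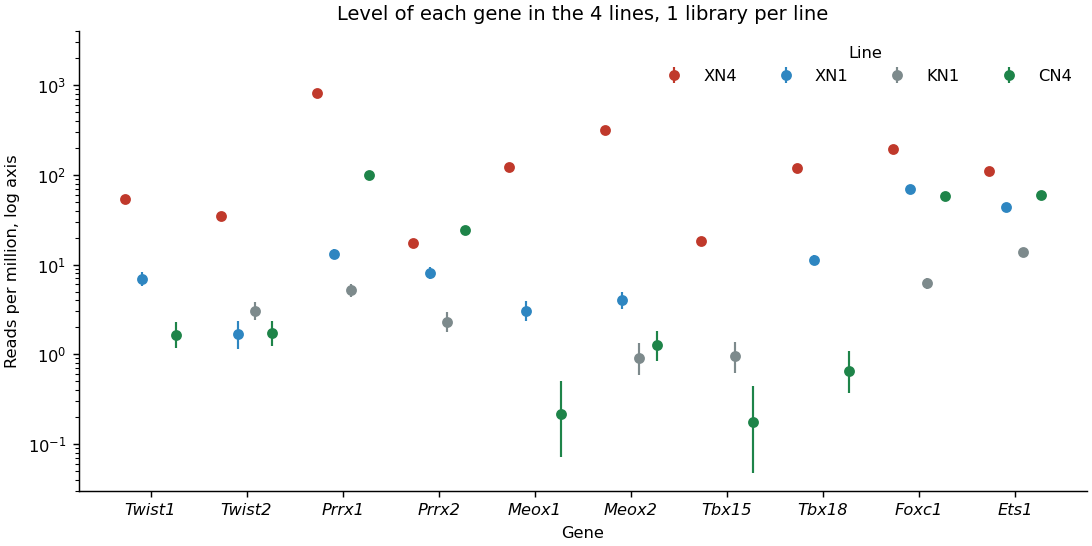
Pooled RPM (log axis) of each of the 10 genes in the normalized tables of XN4, XN1, KN1, and CN4, 1 library per line, with exact 95% Poisson intervals. XN4 is highest for every gene except *Prrx2*, where CN4 lies at 24.3 and XN4 at 17.4; *Twist1*, *Meox1*, and *Tbx18* are not listed for KN1, and *Tbx15* had 0 reads in XN1, so these 4 points are absent.

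Within the Twist pair, both genes were highest in XN4 but the lower lines differed between them. *Twist1* (chromosome 12, 33957671 to 33959829, plus strand), a driver of mesenchymal transition, was not listed for KN1. Its level in XN4 was 53.6 RPM (51.4 to 55.9), XN1 had 6.90 RPM (5.78 to 8.18), and CN4 had 1.66 RPM (1.17 to 2.27). *Twist2* (chromosome 1, 91801461 to 91848028, plus strand), its paralog in dermal mesenchyme, reached 34.7 RPM in XN4 (32.9 to 36.5). KN1 had 3.05 RPM (2.43 to 3.77), CN4 had 1.74 (1.25 to 2.37), and XN1 had 1.66 (1.14 to 2.34). For *Twist1* the 3 intervals did not overlap, whereas for *Twist2* those of CN4 and XN1 did. The CN4 value of *Twist1* rested on 38 reads in 8 cells of 3448, and the KN1 value of *Twist2* on 84 reads in 12 cells of 3975. Their intervals count reads and leave out the spread between so few cells. Without the CN4 cells with at least 10 *Col3a1* reads, described below, CN4 had 0.830 RPM of *Twist1*. In the tables of all reads, *Twist1* in XN1 was 3.79-fold the CN4 level (3.28 to 4.39), and *Twist2* was 0.997-fold (0.789 to 1.26).

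The Prrx genes stood highest in XN4 and CN4. *Prrx1* (chromosome 1, 163245119 to 163313710, minus strand), a homeobox gene of limb and craniofacial mesenchyme, reached 829 RPM in XN4 (821 to 838). CN4 had 99.7 RPM (95.7 to 104), XN1 had 13.2 (11.7 to 15.0), and KN1 had 5.19 (4.37 to 6.11). *Prrx2* (chromosome 2, 30834972 to 30881251, plus strand), its partner in the same tissues, reached 24.3 RPM in CN4 (22.3 to 26.4). XN4 had 17.4 RPM (16.2 to 18.7), XN1 had 8.04 (6.83 to 9.41), and KN1 had 2.29 (1.76 to 2.92). None of these intervals overlapped within a gene. The paralogs shared these 2 lines but took them in the opposite order. For *Prrx2* much of the gap between CN4 and XN4 lay in cells with 1 read. With at least 2 reads in a cell, its levels kept their order but were close, at 13.8 RPM in XN4 and 14.5 in CN4. The shares of such cells, without thinning, had the other order, at 4.71% in XN4 and 3.68% in CN4. XN4 cells were deeper, at a median of 7796 reads against 6572 in CN4. In the tables of all reads, the ratio of XN4 to CN4 was 7.50 for *Prrx1* (7.37 to 7.64) and 0.649 for *Prrx2* (0.613 to 0.687).

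The Meox genes had the widest gaps between XN4 and the rest. *Meox1* (chromosome 11, 101877510 to 101894374, minus strand), which acts in the sclerotome of somites, reached 123 RPM in XN4 (119 to 126). XN1 had 3.06 RPM (2.33 to 3.95), and CN4 had 0.218 RPM (0.0707 to 0.508) on 5 reads. *Meox2* (chromosome 12, 37108540 to 37179534, plus strand), of limb muscle and vascular mesenchyme, reached 315 RPM in XN4 (310.0 to 321). XN1 had 4.00 RPM (3.15 to 4.99), CN4 had 1.26 (0.846 to 1.81), and KN1 had 0.907 (0.587 to 1.34). For *Meox2* the CN4 and KN1 intervals overlapped. The log2 ratio of XN4 to the highest other line, XN1, was 5.32 for *Meox1* and 6.30 for *Meox2* (78.9-fold), the largest of the 10. The size of these folds depended on the measure. For thinned shares of cells they were 21.2 for *Meox1* and 40.7 for *Meox2*. With at least 2 reads in a cell they were 105 and 226. Over all genes, XN4 cells had a median of 3.16 reads for each gene captured, against 2.06 in XN1, and these 2-read folds are not corrected for that.

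The T-box genes parted below XN4. *Tbx15* (chromosome 3, 99240381 to 99354259, plus strand), a factor of limb and skin mesenchyme, reached 18.4 RPM in XN4 (17.1 to 19.7). KN1 had 0.943 RPM (0.616 to 1.38), and CN4 had 0.174 RPM (0.0475 to 0.446) on 4 reads. In XN1 it had 0 reads in 3905 cells, which allows a share of cells of up to 0.0768%. *Tbx18* (chromosome 9, 87702800 to 87731260, minus strand), a gene of pericytes and of the anterior somite, reached 118 RPM in XN4 (115 to 121). XN1 had 11.2 RPM (9.76 to 12.8), and CN4 had 0.654 RPM (0.366 to 1.08). XN1 thus had more *Tbx18* than CN4, whereas *Tbx15* was near 0 in both.

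*Foxc1* and *Ets1* were well above 0 in XN1 and CN4 too. *Foxc1* (chromosome 13, 31806633 to 31812476, plus strand) reached 196 RPM in XN4 (192 to 201). XN1 had 70.2 RPM (66.5 to 74.0), CN4 had 57.7 (54.7 to 60.9), and KN1 had 6.17 (5.28 to 7.17). *Ets1* (chromosome 9, 32636221 to 32757820, plus strand) reached 109 RPM in XN4 (106 to 112). CN4 had 60.3 RPM (57.1 to 63.5), XN1 had 43.9 (41.0 to 47.0), and KN1 had 13.6 (12.3 to 15.1). All intervals were apart, and XN1 and CN4 changed places between the 2 genes. With at least 2 reads in a cell, they did not. *Foxc1* was then at 41.3 RPM in CN4 and 39.2 in XN1. Counts included introns, and whether counting used strand is not given in the sources used here. *Twist2*, *Prrx1*, *Meox1*, *Meox2*, *Tbx15*, *Tbx18*, and *Ets1* overlap other annotated genes, antisense ones among them, whose reads could then not be told apart.

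KN1 was the lowest line for 5 of the 7 genes it lists and came next after XN4 for *Twist2* and *Tbx15*. By share of thinned cells, KN1 was the lowest line for *Twist2* too, at 0.236% against 0.443% in CN4 and 0.479% in XN1, with overlapping intervals. Its cells had a median of 833 genes, against 2257 to 2824 in the other normalized tables, and a median of 6.99 reads for each gene captured in a cell, against 2.06 to 3.16. The part of this in the low KN1 shares was not tested. *Ets1* was captured in 80 of 3975 KN1 cells (2.01%), *Prrx1* in 37, *Foxc1* in 35, and each of the other 4 listed genes in 12 to 20. The share of KN1 cells with any read of *Twist1*, *Meox1*, or *Tbx18* is not analysed here; in the XN1 and CN4 tables, genes not listed had reads in at most 9 cells.

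The share of cells with at least 1 read rises with depth, so it was compared between lines after every cell had been thinned to 3600 reads in the tables of all reads. This left 8587 cells of XN4, 12594 of XN1, and 17614 of CN4. Most XN4 cells held *Prrx1*, at 71.5% of thinned cells (exact 95% Clopper-Pearson interval 70.5% to 72.5%). The share was 20.8% for CN4 (20.2% to 21.4%) and 3.02% for XN1 (2.73% to 3.33%). *Meox2* was held by 40.8% of XN4 cells (39.8% to 41.9%). Its share was 0.969% for XN1 (0.805% to 1.16%) and 0.335% for CN4 (0.255% to 0.432%). *Foxc1* was held by 29.4% of XN4 cells (28.4% to 30.4%). Its share was 15.8% for XN1 (15.1% to 16.4%) and 12.4% for CN4 (11.9% to 12.9%). The order of the lines was the same as that of the levels for these 3 genes. The unthinned shares were 86.7%, 38.8%, and 4.82% for *Prrx1* in XN4, CN4, and XN1, and 62.5% for *Meox2* and 53.9% for *Foxc1* in XN4.

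The other 7 genes were each held by at most 18.4% of cells after thinning. In XN4, *Tbx18* was held by 18.4%, *Ets1* by 18.2%, *Meox1* by 16.5%, *Twist1* by 8.36%, *Twist2* by 6.45%, *Prrx2* by 3.32%, and *Tbx15* by 3.23%. In XN1 and CN4, *Ets1* was held by 10.6% and 13.1%, and *Prrx2* by 2.02% and 5.81%. *Twist1* and *Tbx18* were held by 1.79% and 2.39% of XN1 cells, and by 0.290% and 0.153% of CN4 cells. *Twist2*, *Meox1*, and *Tbx15* stayed under 1% in both lines. Without thinning, an XN4 cell with the gene held on average 11.0 reads of *Prrx1* (at most 124), 5.66 of *Meox2*, and 2.17 to 4.22 of the other 8. In XN1, the average ran from 1 read of *Tbx15* to 1.52 of *Foxc1*.

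**Figure D2:**
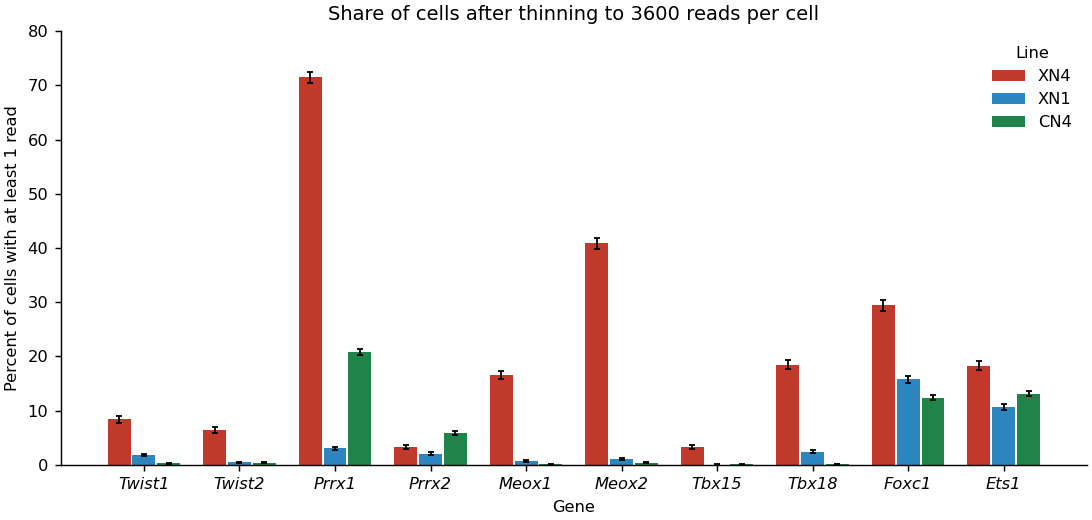
Percent of cells with at least 1 read of each gene in XN4, XN1, and CN4 after thinning to 3600 reads per cell (bars), with exact 95% Clopper-Pearson intervals (lines). The XN4 bar is the tallest for 9 genes; for *Prrx2*, CN4 stands at 5.81% and XN4 at 3.32%.

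Together, the genes marked nearly every XN4 cell even at this low depth. After thinning to 3600 reads, 92.9% of XN4 cells held at least 1 of the 10 genes and 36.3% held 3 or more, with up to 7 in a cell. At least 1 was held by 33.0% of XN1 cells and 44.5% of CN4 cells, and 3 or more by 0.222% and 0.659%. In KN1, thinned to 3200 reads in the normalized table, 3.77% of cells held at least 1 of the 7 listed genes. Depth mattered within a line. In XN4 without thinning, 26.5% of cells in the shallowest of 5 equal groups by reads held 3 or more of the genes, and 99.0% in the deepest.

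**Figure D3:**
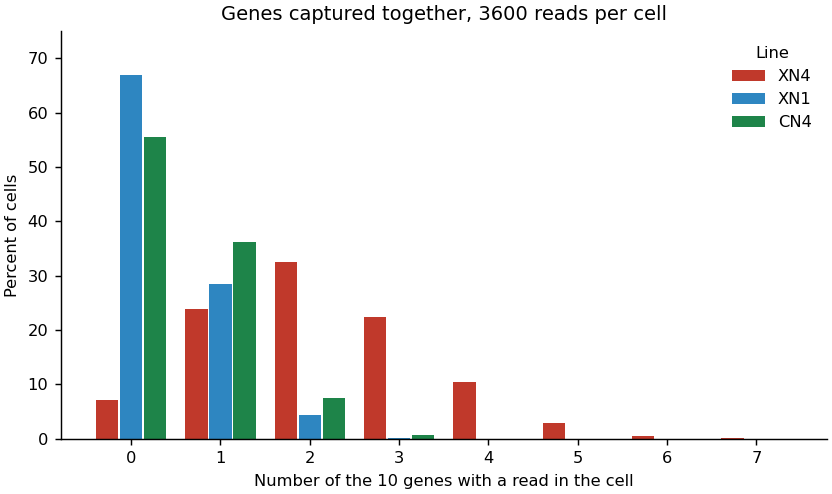
Percent of cells (bars) by the number of the 10 genes with a read in the same cell, after thinning to 3600 reads per cell, in XN4, XN1, and CN4. XN4 peaks at 2 genes (32.6% of cells), whereas 67.0% of XN1 cells and 55.5% of CN4 cells held none.

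Levels were also followed over 5 equal groups of cells ordered by total reads, since pooled levels weigh deep cells more. In XN4, *Twist1* went from 16.6 RPM in the shallowest group to 52.0 in the deepest (3.13-fold), and *Meox1* from 37.4 to 103 (2.74-fold). *Foxc1*, *Tbx18*, and *Prrx1* were 1.80-fold, 1.69-fold, and 1.61-fold higher in the deepest group. *Meox2* went the other way, from 302 to 185 RPM, a ratio of 0.612. The paired genes *Meox1* and *Meox2* thus ran against each other over the depth of XN4 cells. The deepest group had 0.827-fold to 1.28-fold the level of the shallowest for *Twist2*, *Prrx2*, *Tbx15*, and *Ets1*. Between them, *Prrx2* was lowest in the next to shallowest group, at 10.6 RPM against 15.1 in the shallowest, and *Tbx15* was highest in the middle group, at 14.4 against 11.0. In CN4, *Foxc1* went from 32.3 to 57.5 RPM and *Ets1* from 67.3 to 36.7, in opposite directions. In XN1, *Foxc1* was at 54.9 and 53.6 RPM in these groups.

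**Figure D4:**
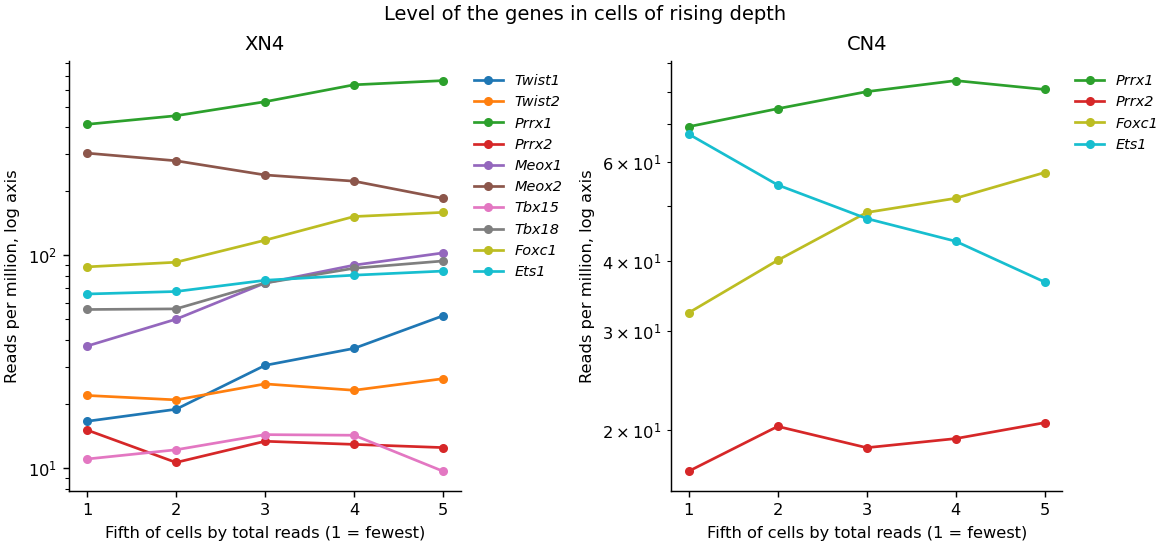
Pooled RPM (log axis) of the genes in each of 5 equal groups of cells ordered by total reads, in the tables of all reads of XN4 (left, all 10 genes) and CN4 (right, the 4 genes with reads in at least 2% of cells). *Meox2* goes from 302 to 185 across XN4 and *Ets1* from 67.3 to 36.7 across CN4, while *Twist1* goes from 16.6 to 52.0 in XN4 and *Foxc1* from 32.3 to 57.5 in CN4.

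CN4 and XN1, the CHIR line and the XAV line with neural progenitor markers, were compared over all reads, with ratios given as CN4 to XN1. Of the 10 genes, 3 were at least 2-fold higher in CN4, where 9.52% of 12648 genes were, and 4 were at least 2-fold lower, where 9.85% of genes were. Those shares are over genes read in at least 1% of cells of either line, which leaves out *Tbx15*, one of the 3, and *Twist2*. *Prrx1* was 7.47-fold higher (79.4 against 10.6 RPM), *Prrx2* 3.39-fold (19.5 against 5.77), and *Tbx15* 2.53-fold, on 54 reads against 11. *Tbx18* was at 0.459 in CN4 and 8.48 in XN1, *Meox1* at 0.310 and 2.16, *Twist1* at 1.56 and 5.91, and *Meox2* at 1.08 and 2.88. The rest were close, with *Ets1* at 1.28-fold, *Twist2* at 1.00-fold, and *Foxc1* at 0.888-fold. The median log2 ratio of the 10 was −0.08, against 0.08 over all genes compared. The 2 Prrx genes were thus on the CN4 side, and both Meox genes, *Twist1*, and *Tbx18* on the XN1 side.

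The low levels were read beside *Col3a1*. Its CN4 level was 0.433% of its XN4 level and its XN1 level 0.0313%. The type I collagen genes gave other figures, with *Col1a1* at 7.48% and 0.252% and *Col1a2* at 19.4% and 77.6% of XN4 in CN4 and XN1. In CN4, *Meox1* stood at 0.364%, *Meox2* at 0.489%, and *Tbx18* at 0.556% of their XN4 levels, near the figure of *Col3a1*, and the other 7 at 2.52% to 154%. In XN1, the 10 genes stood at 0.998% to 45.5% of their XN4 levels, all above the figure of *Col3a1*. The part of RNA carried over from XN4 in these low levels was not tested. XN4 shared 139 cell barcodes with XN1 and 169 with CN4, and *Prrx1* was captured in 42.0% of the CN4 cells whose barcode XN4 also had and in 38.8% of the others. *Meox2* was captured in 1.18% and 0.712% of these CN4 cells, and in 2.16% and 1.48% of the XN1 cells with and without a barcode of XN4. Among the 169 CN4 and 139 XN1 cells with such a barcode, the *Meox2* shares rest on a few cells, and no intervals were computed. *Foxc1* was captured in 21.3% and 24.3% in CN4, and in 28.1% and 23.7% in XN1.

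A small set of CN4 cells held over 50% of the *Twist1* and *Tbx18* reads of that line. Cells with at least 10 *Col3a1* reads, a limit chosen after the values were seen, numbered 58 of 18157 in CN4, 2 in XN1, and 6890 in XN4. In the 58 CN4 cells, *Twist1* was captured in 37 (63.8%, interval 50.1% to 76.0%), against 0.348% of the other CN4 cells, and these cells held 158 of the 282 *Twist1* reads. *Tbx18* was captured in 18 against 0.171%, with 43 of its 83 reads, and *Tbx15* in 11 against 0.182%, with 18 of 54. The 58 cells held 26 of 222 *Twist2* reads, 7 of 56 *Meox1* reads, and 5 of 195 *Meox2* reads. *Meox1* and *Meox2* were each captured in 6.90% of them (1.91% to 16.7%), against 0.188% (0.130% to 0.262%) and 0.696% (0.580% to 0.828%) of the other CN4 cells. Without the 58 cells, the CN4 level of *Twist1* was 0.688 RPM in place of 1.56, and that of *Tbx18* was 0.222 in place of 0.459. *Prrx1* was captured in 46 (79.3%) against 38.7% and *Ets1* in 16 (27.6%) against 24.9%, and the 58 cells held 1.23% and 0.363% of their CN4 reads. Median depth was 9516.5 reads in the 58 cells and 9169 in the others.

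The 58 cells and the XN4 cells above the same *Col3a1* limit differed in several genes. *Meox2* and *Meox1* were each captured in 4 of the 58, whereas 67.2% and 38.7% of the XN4 cells above the same *Col3a1* limit held them. *Foxc1* was captured in 37.9% of the 58 and 62.0% of these XN4 cells, and *Twist1* in 63.8% and 26.6%. *Col1a1* and *Col1a2* encode the chains of type I collagen. *Col1a1* was captured in 72.4% of the 58 cells and 28.3% of these XN4 cells, and *Col1a2* was captured in 87.9% and 7.21%. *Sox2* was captured in 12 of the 58 (20.7%), against 86.1% of other CN4 cells and 0.624% of these XN4 cells. *Nes* was captured in 36 of the 58 (62.1%), against 82.0% of other CN4 cells and 8.71% of these XN4 cells. These XN4 cells were deeper, at a median of 14734.5 reads.

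In CN4, *Ets1* was captured together with *Foxc1*, *Prrx2*, and, by less, *Prrx1* less often than depth alone gave. Cells with a read of both genes were counted and divided by the number expected if the genes were captured independently within 20 strata of total reads. The ratio was 0.720 for *Foxc1* with *Ets1* (Poisson interval 0.673 to 0.769, 873 cells) and 0.717 for *Prrx2* with *Ets1* (0.653 to 0.787, 453 cells), and 0.925 for *Prrx1* with *Ets1* (0.882 to 0.969). It was 1.11 for *Prrx1* with *Foxc1* (1.06 to 1.15), 1.19 for *Prrx2* with *Foxc1* (1.11 to 1.28), and 1.04 for *Prrx1* with *Prrx2* (0.974 to 1.10). Many cells still held *Ets1* with another of these genes.

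The 10 genes were also counted beside *Sox10*, a neural crest and oligodendrocyte lineage factor captured in 2.06% of CN4 cells. In thinned CN4 cells with a *Sox10* read (242 of 17614), *Ets1* was captured in 35.1% (29.1% to 41.5%) against 12.8% of the others. *Prrx1* was captured in 9.09% (5.79% to 13.4%) against 21.0%, *Foxc1* in 4.55% (2.29% to 7.99%) against 12.5%, and *Prrx2* in 2.07% (0.674% to 4.76%) against 5.86%. *Dll1*, a Notch ligand of cells entering differentiation, was captured in 41.3% of these cells against 6.72%. *Twist1*, *Twist2*, *Meox1*, *Meox2*, *Tbx15*, and *Tbx18* had reads in 0 of the 242 cells, which allows a share of up to 1.24%. Their shares in the other thinned CN4 cells were 0.0748% to 0.391%, so 242 cells are too few to show a difference.

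**Figure D5:**
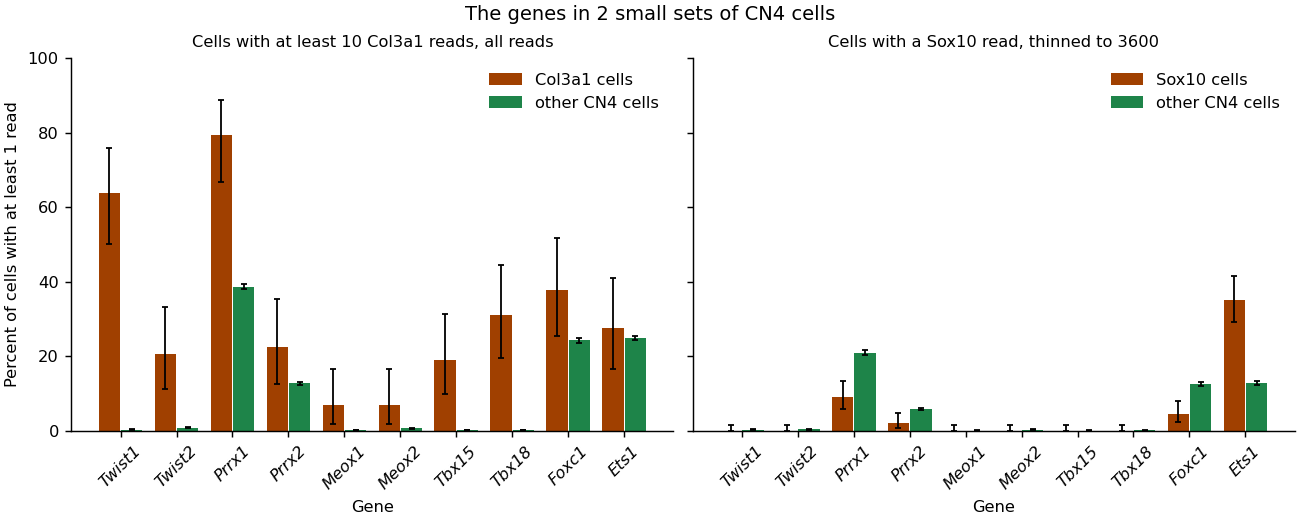
Percent of CN4 cells with at least 1 read of each gene, in cells with at least 10 *Col3a1* reads against other cells (left, all reads, 58 and 18099 cells) and in cells with a *Sox10* read against other cells (right, thinned to 3600 reads, 242 and 17372 cells), with exact 95% Clopper-Pearson intervals. *Twist1* stands at 63.8% against 0.348% on the left, and on the right *Ets1* is the only one of the 10 with a higher bar in *Sox10* cells, at 35.1% against 12.8%. Genes with 0 reads in the *Sox10* cells were at most at 0.391% in the other cells.

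In XN4, most of the 45 pairs of the 10 genes were captured together about as often as depth alone gave. The ratio ran from 0.769 to 1.23 with a median of 1.02. The lowest was *Meox2* with *Tbx15* (366 cells where 476 were expected, interval 0.692 to 0.852), and the highest was *Prrx2* with *Meox1* (438 cells where 357 were expected, a ratio of 1.23). The paralogs were captured together in proportion to depth, at 1.04 for *Twist1* with *Twist2*, 0.997 for *Prrx1* with *Prrx2*, 1.04 for *Meox1* with *Meox2*, and 1.01 for *Tbx15* with *Tbx18*. Over 60 XN4 pairs of the 10 genes with other genes, the ratio ran from 0.839 to 1.38 with a median of 1.01. Intervals were above 1 for 9 of the 60 and below 1 for 2. Among those above, *Col1a1* was captured more often with *Prrx2* (1.38, 1.24 to 1.54), *Meox1* (1.27, 1.19 to 1.35), and *Tbx15* (1.26, 1.11 to 1.43). In XN1, the 15 pairs with enough cells ran from 0.697 to 1.34 with a median of 0.961, and the intervals of all 15 held 1.

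Genes of like pattern were sought by Pearson correlation over the ln values of the cells of a line, which share depth as well as biology, so the values are descriptions. In XN4 (3927 cells, 9899 genes), *Meox2* had the highest correlations, with *Kansl1l* (0.33), *B3gntl1* (0.30), and *Sned1* (0.22), while its correlation with ln depth was −0.06. *Meox1* lay with *Sparc* (0.25), *Serpinh1* (0.24), and *Emp1* (0.24), genes of matrix assembly and membranes, with 0.25 for depth. *Prrx1* lay with *Nid1* (0.21), *Ptn* (0.20), and *Ogn* (0.19), and *Foxc1* with *Nid1* (0.23), *Plat* (0.23), and *Ogn* (0.22). *Twist1* lay with *Eef1a1* (0.20), *Selenof* (0.20), and *Nid1* (0.19). *Nid1*, a basement membrane protein, appeared for *Twist1*, *Prrx1*, and *Foxc1*, whose correlations with ln depth (0.26, 0.28, and 0.27) were above those with any gene.

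*Tbx15* lay with *Meis2* (0.19), *Ptprd* (0.15), and *Ndn* (0.15), and *Tbx18* with *Cfl1*, *Peg10*, and *Ppia* (each 0.14). The highest values were 0.11 for *Prrx2*, with *Col4a1*, and 0.10 for *Ets1*, with *Cd47*, and for *Twist2* no gene reached 0.1. The correlations of *Tbx18* and *Ets1* with ln depth in XN4 were 0.21 and 0.14, again above those with any gene. In CN4 (3448 cells), *Ets1* lay with *Prss23* (0.25), *Dll1* (0.24), and *Sox4* (0.23). *Foxc1* lay with *Selenop* (0.23), *Pcp4l1* (0.21), and *Coro2b* (0.21), *Prrx1* with *Selenop* (0.14), *Nid1* (0.13), and *Tnc* (0.13), and *Prrx2* with *Coro2b* (0.13), *Igfbp4* (0.12), and *Ackr4* (0.12). In XN1, the highest was 0.10 for *Foxc1*, with *Ctgf*, and 0.11 for *Ets1*, with *Chl1*. Among the 45 pairs of the 10 genes in XN4, the correlation ran from −0.09 to 0.12.

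The genes were compared between cells with reads of at least 2 of *Hmgb2*, *Mki67*, and *Top2a*, genes of dividing cells, and cells with none, after thinning to 3600 reads. This cut is a range and not a cell type. In XN4, 1626 cells were in the first set, 5379 in the second, and 1582 between them. *Foxc1* was captured in 33.6% of the first (31.3% to 36.0%) and 27.3% of the second (26.1% to 28.5%), *Meox1* in 20.2% (18.3% to 22.3%) and 14.9% (14.0% to 15.9%), and *Twist1* in 10.1% (8.72% to 11.7%) and 7.83% (7.12% to 8.58%). With *Mki67* alone, the *Twist1* shares were 8.81% and 8.25% and their intervals overlapped. The intervals of the other 7 overlapped, with *Meox2* at 40.3% in both. Among 10942 genes read in at least 1% of thinned XN4 cells, 32.2% were higher in the first set with intervals apart and 10.4% were lower, so 3 of 10 higher was near the background.

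In CN4, 9911 cells were in the first set and 4453 in the second, and the order of *Foxc1* turned. *Foxc1* was captured in 11.1% of the first (10.5% to 11.8%) and 14.8% of the second (13.8% to 15.9%), *Prrx2* in 4.94% (4.52% to 5.39%) and 6.89% (6.17% to 7.68%), and *Prrx1* in 22.5% (21.7% to 23.3%) and 18.8% (17.6% to 19.9%). *Twist1* was captured in 0.121% (0.0626% to 0.211%) and 0.606% (0.400% to 0.881%). In XN1, *Foxc1* was captured in 13.8% (12.6% to 15.0%) and 16.3% (15.5% to 17.2%), and *Ets1* in 8.68% (7.72% to 9.72%) and 11.1% (10.4% to 11.9%). Other genes of XN1 went the opposite way, with *Prrx1* at 3.77% and 2.59%, *Meox2* at 1.63% and 0.543%, and *Twist2* at 0.702% and 0.265%, none with overlapping intervals (those of *Twist2* overlapped with *Mki67* alone). Over all genes read in at least 1% of thinned cells, which leaves out *Meox2* and *Twist2* in XN1 and *Twist1* in CN4, intervals were apart for 28.1% higher and 20.5% lower genes in XN1, and for 26.3% and 20.7% in CN4. The counts of the 10 genes, 3 higher and 2 lower in XN1 and 1 and 3 in CN4, are therefore given as values and not as a result about them. *Foxc1*, 1 of the 10, was captured more often in the dividing set of XN4 and less often in those of XN1 and CN4. How many of all genes do so was not counted.

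Other mesenchymal genes were counted by the same 2-fold rule, which 9.69% of all genes met for XN4, 3.0% for XN1, 12.5% for KN1, and 2.07% for CN4. Of 45 other mesenchymal transcription factors, 35 were in a normalized table and 16 were above every other line in XN4, against 1 in XN1, 4 in KN1, and 0 in CN4. The KN1 count was near its background. These lists, too, were drawn up with earlier results of these data known. Their summed level was 3797 RPM in XN4 and 4343 in KN1, of which *Zeb1*, a repressor of epithelial genes, gave 3207, against 1969 in XN1 and 1474 in CN4. The largest ratios in XN4 belonged to *Shox2* (19.2 against at most 0.104 RPM), a limb homeobox gene, *Ebf2* (352 against 3.01), *Osr1* (54.6 against 0.523), and *Six2* (60.0 against 0.882). Of 18 connective tissue genes, 12 were above every other line in XN4, led by *Dcn* (1224 against 5.36), *Col3a1* (5474 against 24.1), *Pdgfrb* (72.8 against 0.741), and *S100a4* (21.4 against 0.311), and *Thy1* was below. Of 17 partner and target genes of TWIST and ETS factors, 5 were above, among them the metalloproteinase *Mmp9* (28.6 against 0.349), *Fgf10* (34.3 against 1.56), *Mmp3* (17.2 against 1.22), and *Acvrl1* (2.53 against 0.610), whereas *Cdh2*, the N-cadherin gene, was below (19.1 against at least 255). This list summed to 3305 RPM in XN4 and to 3885 to 4874 in the other lines, and the connective tissue list to 16077 in XN4 and 1005 to 4388.

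Markers of other cell types stood beside these values as follows. The summed level of 8 endothelial genes was 319 RPM in XN4 and 6.84 to 19.6 in the other lines, of which *Emcn* gave 312, while the defining *Pecam1* and *Cdh5* were at 0.939 and 2.43. Of 6 mural genes, 3 were above every other line in XN4, and their sum was 117 against 57.9 to 108. The sum of 8 neural crest genes was 62.2 in CN4 and 7.68 to 14.7 elsewhere, with *Pax3* (35.3) and *Sox10* (7.15) above every other line in CN4. Blood and macrophage, skeletal muscle, epithelial, and paraxial mesoderm genes summed to at most 16.3 in any line, and dividing-cell genes to 2343 in CN4 against 1109 to 1505 in the rest. The part of any of these cell types in the levels of the 10 genes was not tested.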

How the data were processed

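Each of the 4 NSC lines was profiled once by BD Rhapsody single-cell RNA sequencing. The tables of all reads (XN4, XN1, CN4) are deposited counts of reads, not of molecular identifiers. Per the file headers they came from BD's WTA Analysis Pipeline 1.12.1 and GRCm38, with reads in introns counted. The normalized tables of all 4 lines are deposited natural log values, ln(1 + 10000 × reads / total reads of the cell), which the authors computed with Seurat 4.3.0 on fewer cells and without ribosomal protein or mitochondrial genes. These were turned back into reads; 100% came out whole within 0.01. Depth was 140311227, 93096507, and 180825519 reads in the tables of all reads of XN4, XN1, and CN4, and 41539513, 19271688, 27563145, and 22947874 in the normalized tables of XN4, XN1, KN1, and CN4. Genes a normalized table does not list were taken from the table of all reads in the same cells. The XN4 normalized table breaks off in the alphabet, which touched no gene named.

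The 10 genes and the marker lists were chosen with earlier results of these data known. By rule, all 10 are named, up to 4 genes of each other list with the largest ratio, and the 3 genes with the highest correlation of at least 0.1. Further neural progenitor genes, *Thy1*, *Cdh2*, *Zeb1*, *Pecam1*, *Cdh5*, *Dll1*, *Col1a1*, and *Col1a2* were named after their values were seen. *Col3a1* and *Sox10* sets were chosen after values were seen. Intervals are 95%, exact, and cover counting error only. Thinning drew 3600 or 3200 reads per cell and left out 154 to 1858 shallower cells in the tables of all reads. No doublet caller was run and no cell was removed; an alternative drops the deepest 5% of cells. Further alternatives are equal weight for each cell, other folds, at least 2 reads, and other strata. Procedures were tested on simulated data, with Python 3.11.15, numpy 2.4.6, and scipy 1.17.1.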

Additional observations from a re-analysis of the deposited data

How the results depend on the processing

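No result crossed from one direction to the other among those past the 2-fold rule. The count of 8 genes in XN4 was 9 at a fold of 1.5 and with at least 2 reads in a cell (*Ets1* then passed), 7 at a fold of 4 (*Foxc1* then missed), and 8 for the share of cells after thinning, with each cell weighted equally, without the deepest 5% of cells, and without the *Col3a1* cells of the other lines, an alternative added after seeing the data. The counts of 0 in XN1, KN1, and CN4 stayed at 0 under each of these. Against XN1, the 3 genes higher in CN4 became 1 at a fold of 4, and the 4 lower ones became 2 at a fold of 4 and 2 with at least 2 reads in a cell, where *Twist1* and *Meox2* missed the fold. *Tbx15* missed it for thinned shares and without the *Col3a1* cells, which left 2 higher genes. Co-capture ratios stayed within their intervals with 5 and 50 strata for 66 of 66 pairs, moved for 10 with at least 2 reads, and moved for 49 without strata. With *Mki67* alone, 7 of 37 differences between dividing and other cells moved, among them *Twist1* in XN4. Depth limits the genes under 1% of cells, and 1 library per line limits every comparison between lines. No paired analysis was possible because each line is 1 library and no result comes from a test.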
